A study of Mus musculus with 2 samples.

Results

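The gene studied was Cyp11a1 with its surrounding open chromatin in mouse adrenal gland, as mapped by DNase-seq, an assay in which DNase I cuts accessible DNA in nuclei and the cut ends are sequenced. The locus was the gene body in GENCODE M21 (chr9:58006411-58027023, plus strand, mm10) with 50 kb on each side, chr9:57956411-58077023. All peaks, footprints and stretches of significant cut rate inside it were taken, in both replicates, and the window's bounds use no measured value. The 4 peak lists, a shorter and a longer one per replicate, held 49 entries there (35 of replicate 1 and 14 of replicate 2). Those of the longer lists, 21 of replicate 1 and 9 of replicate 2, merged into 22 elements, of 167267 in all. There was 1 group of 2 samples, labelled biological replicates 1 and 2. Both were adrenal glands of B6CASTF1/J mice (an F1 hybrid, C57BL/6J by CAST/EiJ), female, 10 days old, with 3 females named per sample and no treatment named. Both carry the same donor label, and what it stands for is not given in the sources used here. With 1 group, no condition could be compared and no test was made, so the values of the replicates stand side by side.

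Cyp11a1 encodes the cholesterol side-chain cleavage enzyme, a cytochrome P450 of the inner mitochondrial membrane that turns cholesterol into pregnenolone, the entry step of steroid synthesis. It is a defining gene of steroid-making cells of the adrenal cortex and gonads. Steroidogenic factor 1 (SF-1, the product of Nr5a1) is the nuclear receptor best known for regulating it, and pituitary ACTH raises its expression through cyclic AMP. A DNase I peak marks DNA open in many cells, and a footprint is a short stretch within it that is cut less than its surroundings. In whole gland, fewer cells of a type and less open DNA per cell cannot be told apart.

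Elements are named by the distance of their centre from the RefSeq internal start of Cyp11a1 at position 58014952. Sequences are shown for the elements with overlapping footprints of both replicates and for those in which a footprint covers an SF-1 or CTCF match. They are read from the plus strand of the mm10 reference (GRCm38), 5′ to 3′, and carry no CAST/EiJ variant. In the next 6, capitals mark bases inside footprints of both replicates. They lie at chr9:57965901-57966100, chr9:57990541-57990720, chr9:58009041-58009300 (the replicate 1 peak), chr9:58037001-58037280 (the replicate 1 peak, whose end cuts the last capitals short), chr9:58038561-58038800 and chr9:58060981-58061180.
-49.0 kb: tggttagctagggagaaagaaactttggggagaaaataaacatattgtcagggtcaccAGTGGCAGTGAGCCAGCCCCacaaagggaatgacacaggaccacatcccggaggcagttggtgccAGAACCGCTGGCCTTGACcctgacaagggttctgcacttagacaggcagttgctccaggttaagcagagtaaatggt
-24.3 kb: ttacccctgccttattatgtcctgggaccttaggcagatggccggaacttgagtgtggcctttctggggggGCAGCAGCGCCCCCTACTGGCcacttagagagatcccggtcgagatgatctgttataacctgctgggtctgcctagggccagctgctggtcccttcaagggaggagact
-5.8 kb: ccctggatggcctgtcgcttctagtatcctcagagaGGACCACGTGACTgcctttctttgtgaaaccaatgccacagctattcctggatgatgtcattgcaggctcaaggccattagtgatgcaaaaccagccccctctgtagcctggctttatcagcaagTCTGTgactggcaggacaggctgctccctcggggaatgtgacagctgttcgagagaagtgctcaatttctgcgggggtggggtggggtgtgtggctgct
+22.2 kb: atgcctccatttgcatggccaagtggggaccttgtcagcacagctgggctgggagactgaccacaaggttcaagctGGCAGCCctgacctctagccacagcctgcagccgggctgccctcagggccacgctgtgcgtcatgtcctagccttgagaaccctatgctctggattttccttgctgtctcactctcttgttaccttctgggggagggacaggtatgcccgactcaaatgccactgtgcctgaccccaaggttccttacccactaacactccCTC
+23.7 kb: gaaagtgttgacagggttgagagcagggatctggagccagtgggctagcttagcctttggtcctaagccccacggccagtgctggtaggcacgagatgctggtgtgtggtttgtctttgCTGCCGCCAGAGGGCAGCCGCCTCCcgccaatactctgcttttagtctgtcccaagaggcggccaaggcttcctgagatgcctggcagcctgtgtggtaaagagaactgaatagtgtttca
+46.1 kb: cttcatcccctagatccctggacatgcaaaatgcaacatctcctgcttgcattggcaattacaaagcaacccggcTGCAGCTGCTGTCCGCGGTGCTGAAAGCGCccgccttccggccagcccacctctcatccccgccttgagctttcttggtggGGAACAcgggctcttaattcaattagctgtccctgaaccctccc

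In the following 3, capitals mark bases inside footprints of replicate 1, since replicate 2 had no footprint at those bases. They lie at chr9:58003460-58003546 (a stretch of the -11.5 kb element, whose leftmost capitals are the end of a longer footprint), chr9:58011642-58011932 (the higher replicate 1 peak of the -3.2 kb element) and chr9:58053204-58053380.
-11.5 kb: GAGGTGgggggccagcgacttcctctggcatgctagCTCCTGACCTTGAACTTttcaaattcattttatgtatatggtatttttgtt
-3.2 kb: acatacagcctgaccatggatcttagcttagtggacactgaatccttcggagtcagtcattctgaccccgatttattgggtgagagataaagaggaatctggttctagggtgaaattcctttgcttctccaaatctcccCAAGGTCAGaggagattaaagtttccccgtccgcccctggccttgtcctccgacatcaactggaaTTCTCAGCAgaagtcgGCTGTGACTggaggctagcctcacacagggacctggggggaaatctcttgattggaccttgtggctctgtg
+38.3 kb: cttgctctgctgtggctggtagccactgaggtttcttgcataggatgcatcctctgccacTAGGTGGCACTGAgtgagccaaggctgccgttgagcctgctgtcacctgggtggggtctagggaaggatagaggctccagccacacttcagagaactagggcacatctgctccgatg

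At the promoter, which lies in exon 1 of Cyp11a1-201, only stretches of 30 bases are shown. The upper one (chr9:58014912-58014941) has the nuclear receptor hexamer AGGTCA in capitals, and the lower one (chr9:58014959-58014988) has in capitals the replicate 1 footprint that covers a TATAA.
promoter, hexamer: gaggaaggggggAGGTCAccgctccatcag
promoter, TATAA: agctggTGGTTATAAGTGTGGCTCtggagg

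Open chromatin at Cyp11a1 in both replicates lay at an internal start and not at the most 5′ GENCODE start, whereas a RefSeq start farther upstream had low longer-list peaks nearby. The internal start carried the highest peak of the locus in both replicates, at chr9:58014881-58015120, with a height of 3.74 in replicate 1 and 1.87 in replicate 2. Height is the authors' normalised cut signal at the peak. The peak covered the RefSeq internal start and that of the retained-intron transcript Cyp11a1-204 (58014997). It began 210 bp (replicate 1) and 230 bp (replicate 2) downstream of the start of Cyp11a1-201 (58014671), the transcript with all 9 exons and 1578 coding bases, whose start codon at 58015039 lies inside the peak. The false discovery rate (FDR) of the cut rate was lowest at 9.8e-23 in replicate 1 and 1.8e-08 in replicate 2. At the RefSeq start itself it was 4.4e-20 and 1.6e-06, whereas no base at the Cyp11a1-201 start was listed under 0.05 in either replicate.

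The most 5′ GENCODE start belongs to Cyp11a1-202 (58006411), a transcript of 4 exons and 347 coding bases that lies 8541 bp upstream of the RefSeq internal start. No peak of any list lay within 1 kb of it, and the nearest were 2630 bp away in replicate 1 and 2530 bp in replicate 2. Within 1 kb of it 0 bases were listed at an FDR under 0.05 in either replicate. Among 21938 protein-coding genes, 68% had such a base near their most 5′ start (taken from GENCODE throughout) in replicate 1 and 65.2% in replicate 2. RefSeq places another Cyp11a1 start at 57998024, 17 bp before that of the lincRNA Gm17322 (57998041). Within 1 kb of it 196 bases were listed at an FDR under 0.05 in each replicate, and the nearest peaks were 383 bp away in replicate 1 and 33 bp in replicate 2. There the replicates differed in place: replicate 1 had a peak of 1.50 at -16.4 kb, replicate 2 had one of 0.694 at -16.8 kb, both were in the longer lists only, and they did not overlap. The start of Cyp11a1-203 (58017396) had a longer-list peak of 0.809 in replicate 1 within 1 kb and none in replicate 2.

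Of 12679 protein-coding genes with an internal start more than 1 kb from the most 5′ GENCODE one, 6.38% had a shared peak at an internal start and no peak at the most 5′ start, as Cyp11a1 did. A shared peak at the most 5′ start was found in 67.3% of them, and one at an internal start in 26.3%. The 3 genes with this layout whose internal peaks were nearest to that of Cyp11a1, by Euclidean distance of log2 heights over the 2 replicates, were Hsd17b14 (3.72 and 1.84, distance 0.020), Gsdme (3.70 and 1.91, distance 0.036) and Senp7 (3.70 and 1.93, distance 0.054). Likeness here is of height and layout alone.

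The promoter was of middle height among promoters. Its peak was higher than 54.8% of 21716 shared peaks within 1 kb of a start in replicate 1, and than 48.6% in replicate 2. It was poor in CpG: the RefSeq window of 300 bp at the internal start had an observed over expected CpG of 0.0541, and 6.55% of 32851 such windows had less. The median was 0.384, and the window at the upstream RefSeq start had 0.307.

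**Figure D1:**
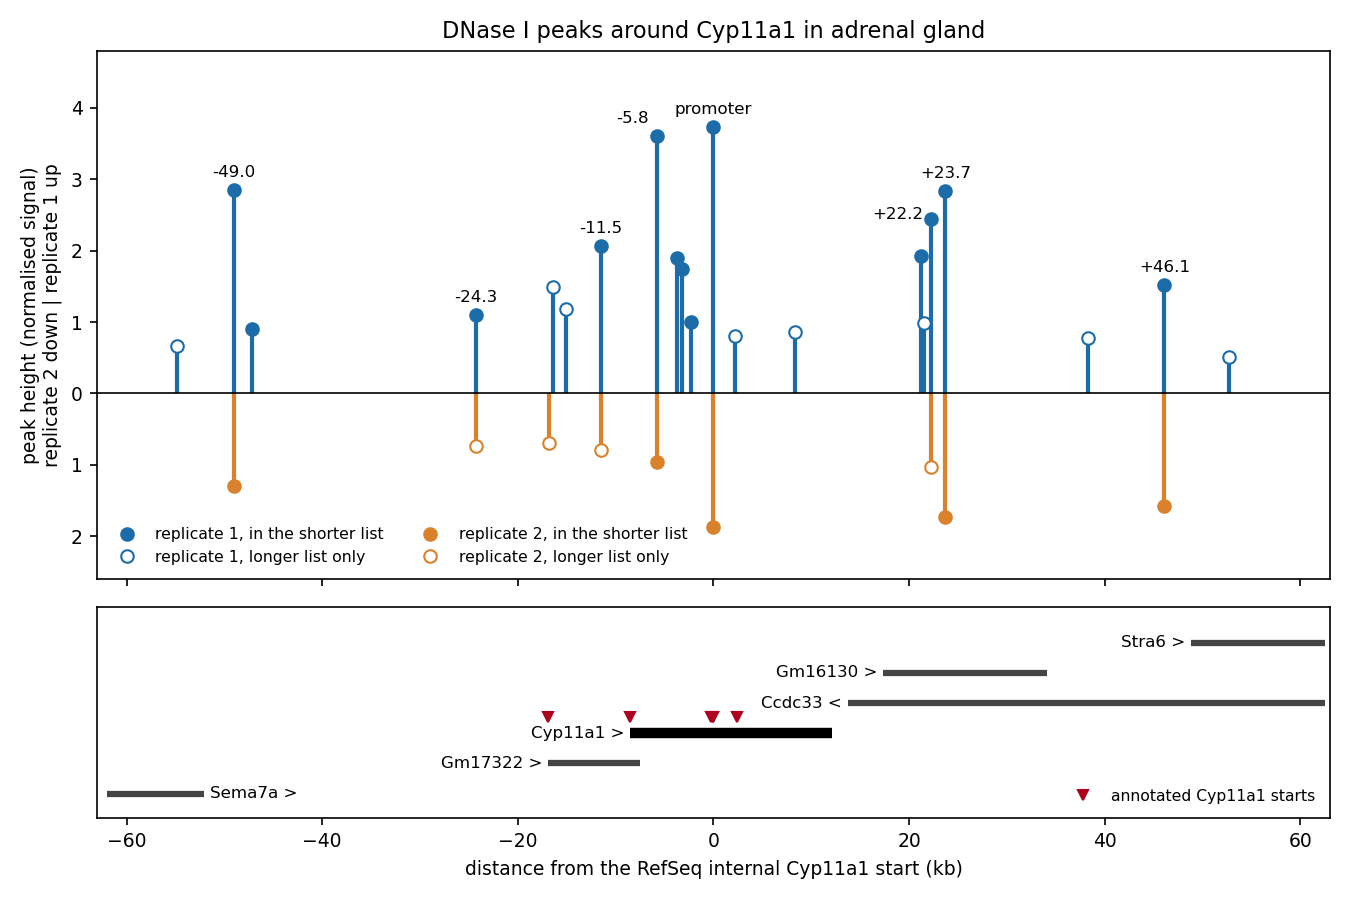
Peak height (y axis, normalised signal) of the 22 elements against distance from the RefSeq internal start in kb, replicate 1 upward and replicate 2 downward, with genes below. Filled points are in the shorter peak list of that replicate, open points in the longer list alone. The promoter is the highest point in both replicates, and the Cyp11a1 start at -8.5 kb has no point within 1 kb.

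Replicate 1 had 14 peaks of its shorter list in the window and 21 of its longer list, and replicate 2 had 5 and 9. All 5 shorter-list peaks of replicate 2 overlapped one of replicate 1, where 91.5% did so genome-wide. Of the 14 of replicate 1, 5 overlapped one of replicate 2 (51.9% genome-wide). Per 100 kb the shorter lists held 11.6 peaks in the window against 3.63 genome-wide in replicate 1, and 4.15 against 2.02 in replicate 2. Over the longer lists, 8 of the 22 elements had a peak in both replicates, 13 in replicate 1 alone and 1 in replicate 2 alone. Genome-wide 51.7% of the longer-list peaks of replicate 1 and 86.5% of those of replicate 2 overlapped one of the other. Just 1 of the 13 held a base under an FDR of 0.05 in replicate 2 (the +38.3 kb element, 6 bases, lowest FDR 0.0448), and genome-wide 10.3% of such elements did. The 5 shared elements equalled the median over protein-coding genes, and 53.8% of them had at least 5 in their own body and 50 kb on each side. Per 100 kb of window the median over these genes was 3.46 shared elements, against 4.15 for Cyp11a1, and 58.4% had fewer.

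Upstream of the promoter, the highest element of replicate 1 lay at -5.8 kb in an intron of Cyp11a1-202, and that of replicate 2 at -49.0 kb. The height at -5.8 kb was 3.60 in replicate 1 and 0.967 in replicate 2, so it came next to the promoter in replicate 1 and ranked behind the promoter, +23.7 kb, +46.1 kb, -49.0 kb and +22.2 kb in replicate 2. Its lowest FDR was 1.9e-11 and 5.6e-04. Among 26639 shared peaks over 1 kb from every start, it was higher than 91.2% in replicate 1 and 57.0% in replicate 2. The -49.0 kb element, between genes, had heights of 2.85 and 1.30, and its lowest FDR in replicate 1 (8.1e-24) was below that of the promoter. In replicate 2 the lowest FDR there was 1.2e-08. The replicate 1 minimum lay in a short block with abrupt edges. Its -log10 FDR rose from 12.1 to 19.4 between -45 and -40 bp from the element's centre. It fell from 23.1 to 15.5 between -10 and -5 bp, and replicate 2 had no such block.

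A further 3 elements stood between -5.8 kb and the promoter, all in an intron of Cyp11a1-202 and all in replicate 1 alone. Their heights were 1.89 at -3.7 kb, 1.74 at -3.2 kb and 1.00 at -2.3 kb. No base of them was listed under an FDR of 0.05 in replicate 2, although each was in the shorter list of replicate 1. The -11.5 kb element, in an intron of Gm17322, had a height of 2.07 in replicate 1 and 0.787 in replicate 2, there in the longer list only. The -24.3 kb element had 1.10 and 0.744, also in the longer list only in replicate 2. The remaining upstream elements were in replicate 1 alone, at 0.662 (-54.8 kb, in an intron of Sema7a), 0.896 (-47.2 kb) and 1.18 (-15.1 kb).

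Downstream of Cyp11a1 the elements lay in introns of Ccdc33, a gene on the opposite strand. The +23.7 kb element had heights of 2.83 and 1.74, the highest there in both replicates, and the +46.1 kb element had 1.52 and 1.57. In replicate 2 these followed the promoter in height, and the order of the replicates differed: -5.8 kb, -49.0 kb and +23.7 kb came after the promoter in replicate 1, whereas +23.7 kb, +46.1 kb and -49.0 kb did in replicate 2. A group of 3 elements between +21.2 and +22.2 kb had 1.93, 0.989 and 2.45 in replicate 1, and only the last had a peak in replicate 2 (1.04, longer list). Inside the gene body downstream of the promoter just 2 elements were found, at +2.2 kb (0.809) and +8.3 kb (0.856), both intronic and in the longer list of replicate 1 alone. The +38.3 kb (0.782) and +52.7 kb (0.515) elements, on either side of +46.1 kb, were also in the longer list of replicate 1 alone. None of the neighbours with a start in the window other than Gm17322 (Ccdc33, Gm16130 and Stra6) had a peak of any list within 1 kb of that start. For Ccdc33 and Stra6 these were starts of retained-intron or processed transcripts only. The starts of their coding transcripts lie outside the window and were not examined.

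Of the 8 elements with a peak in both replicates, 7 were higher in replicate 1, as were 93% of the 48355 shared peaks of the shorter lists genome-wide. Across those the log2 ratio (replicate 1 over replicate 2) had a median of 0.73, so each ratio is also given centred on it. The -5.8 kb element stood farthest up, with a log2 ratio of 1.90 and a centred ratio of 1.17, above 99.6% of all shared peaks and above 99.4% of the 6888 of like height. The +46.1 kb element stood farthest down, with -0.05 and a centred ratio of -0.78, above 5.73% of all shared peaks. It was the only one of the 8 that was higher in replicate 2. These elements are 51.9 kb apart.

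Between them lay -11.5 kb with a centred log2 ratio of 0.66, +22.2 kb with 0.51, -49.0 kb with 0.40, the promoter with 0.27, +23.7 kb with -0.02 and -24.3 kb with -0.16. The median over the 5 elements shared in the shorter lists was 0.27, and 16.1% of genes with a shared peak had at least that in their window. Heights came in whole steps of a fixed size in each sample, 0.00668 in replicate 1 and 0.00620 in replicate 2. If 1 step were 1 tag, which no source states, the -5.8 kb peak would hold 539 and 156 tags, with counting errors of 4.31% and 8.01%, and the +46.1 kb peak 228 and 254, with 6.62% and 6.27%. The spread between animals beyond these 2 samples is not known.

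**Figure D2:**
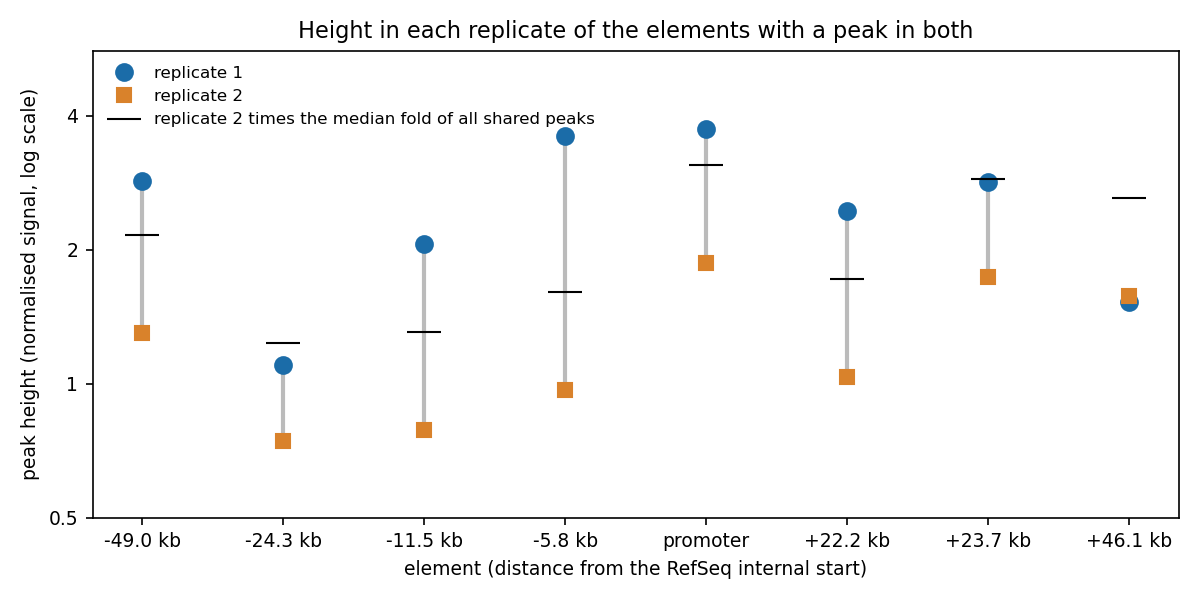
Peak height (y axis, normalised signal on a log scale) in replicate 1 (circles) and replicate 2 (squares) for the 8 elements with a peak in both. The black dash is the replicate 2 height times 1.66, the median fold of all shared peaks: the -5.8 kb circle lies farthest above its dash and the +46.1 kb circle farthest below.

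**Figure D3:**
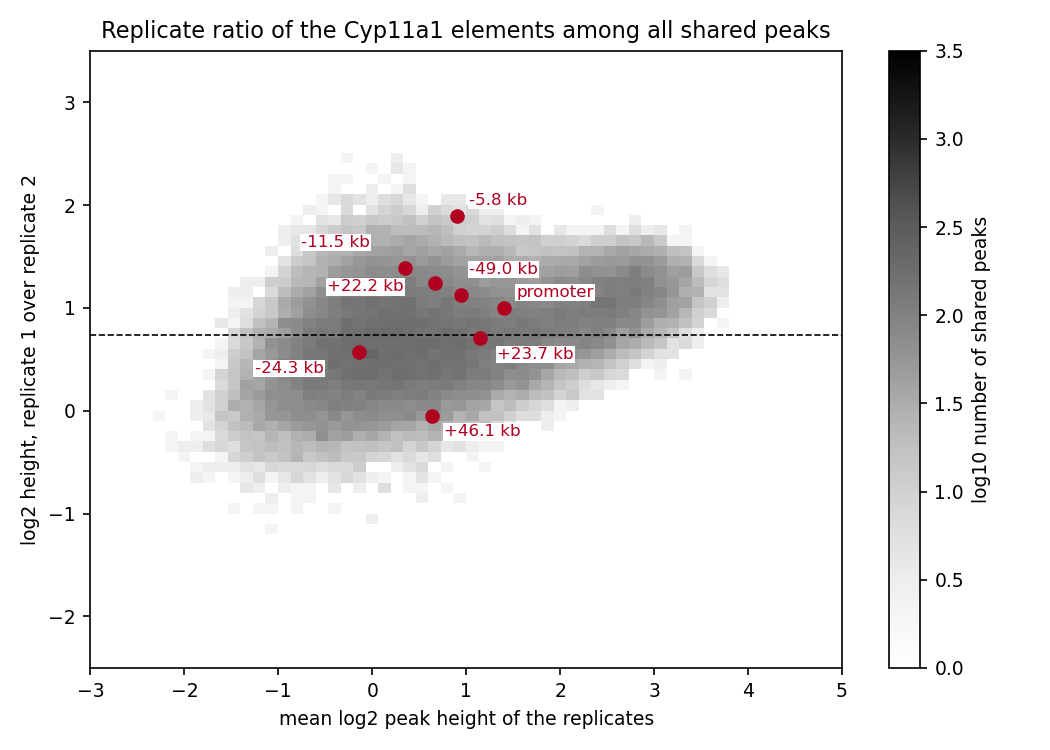
Log2 ratio of replicate 1 over replicate 2 (y axis) against the mean log2 height of the replicates (x axis) for 48355 shared peaks (grey, log10 number per cell) and the 8 elements of the locus (red). The dashed line is the median of 0.73, and the red points run from -0.05 at +46.1 kb to 1.90 at -5.8 kb.

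Cell makeup may differ between the samples, and the markers were read the same way, as the median centred log2 ratio of shared peaks in each gene's window. The median over genes was 0.30 for the 8 cortex markers (range -0.14 to 0.54) and -0.26 for the 8 chromaffin markers (-0.39 to 0.44). It was -0.13 for the 6 adipocyte markers (-0.19 to -0.01) and -0.19 for the 6 capsule markers (-0.26 to 0.09). For the 5 endothelial markers it was -0.13 (-0.58 to 0.26), and for the 5 blood markers 0.17 (-0.03 to 0.96). Hand2, Tcf21, Tek, Gata1 and Hbb-bs rested on 1 shared peak each. A shared peak at a start was present in 5 of 8 cortex, 4 of 8 chromaffin, 5 of 6 adipocyte, 5 of 6 capsule, 2 of 5 endothelial and 0 of 5 blood genes, where 63.6% of all protein-coding genes had one. Among the cortex markers Hsd3b1, Cyp21a1 and Mc2r lacked it. Of the 8 Cyp11a1 elements with a peak in both replicates, 5 had a centred ratio above 0. The centring puts the median of all shared peaks at 0, so this count is near an even split. The part of cell makeup in these ratios was not tested.

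The window was richer in bases of significant cut rate than the genome at an FDR under 0.05 in both replicates. The baseline was the whole genome, and windows around other genes were not compared. In replicate 1, 6253 bases of the window (5.18%) were listed at an FDR under 0.05, 2.75 times the genome-wide share. In replicate 2 there were 2436 bases (2.02%), 1.62 times the genome-wide share. At an FDR under 0.001 the window held 2.50 times the genome-wide share in replicate 1 and 0.990 times in replicate 2. Of the bases under 0.05, 77.5% in replicate 1 and 81.8% in replicate 2 lay inside the 22 elements. The stretches outside them were at most 31 and 64 bp long where they touched no element.

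**Figure D4:**
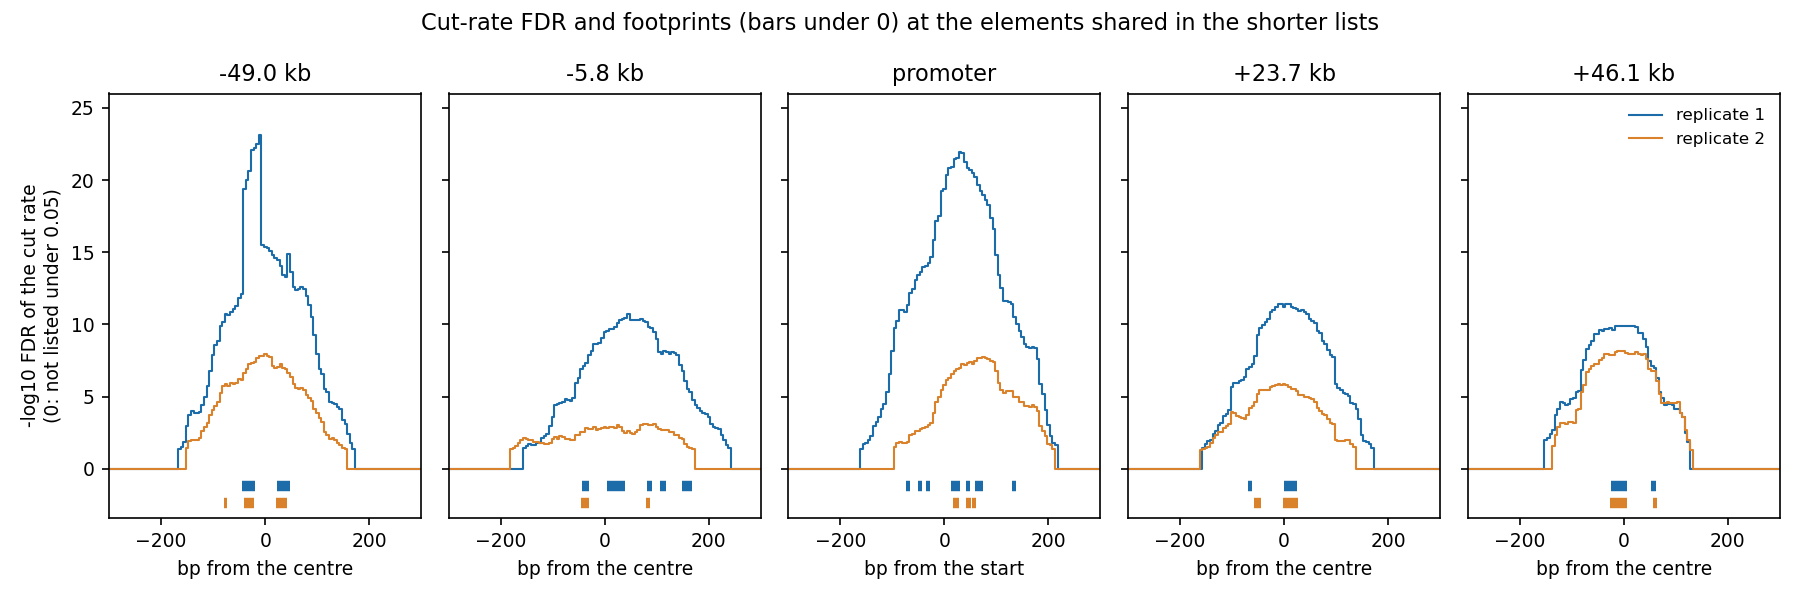
The -log10 FDR of the cut rate (y axis; 0 where no base was listed under 0.05) by distance in bp from the start (promoter) or centre of the 5 elements shared in the shorter lists, with footprints as bars under 0. Replicate 1 is blue and replicate 2 orange. The curves come close to each other at +46.1 kb and lie farthest apart at the promoter and -49.0 kb.

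Replicate 1 had 55 footprints in the window and replicate 2 had 20. Of those of replicate 1, 23.6% overlapped one of replicate 2 (13 of 55, exact binomial 95% interval 13.2% to 37.0%), and 34.4% did genome-wide. Of those of replicate 2, 70.0% overlapped one of replicate 1 (14 of 20, 45.7% to 88.1%), and 49.5% did genome-wide. These intervals cover counting error only and treat footprints as independent, although they cluster within elements. Footprints found in both were longer, with a median of 15 bp against 9 bp for the others in replicate 1 and 12.5 bp against 9 bp in replicate 2. An overlap of 1 bp was enough, which by itself favours longer footprints, so the difference in length is partly built in. Footprints found in both lay in 7 of the 8 elements with peaks in both replicates, and 1 of replicate 2 lay just outside the +22.2 kb element. The element without any was -11.5 kb, with 8 footprints in replicate 1 and 2 in replicate 2, none overlapping.

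At the promoter, replicate 1 had 7 footprints and replicate 2 had 3, each overlapping one of replicate 1. The footprint from 13 to 30 bp after the RefSeq start in replicate 1 (17 to 27 bp in replicate 2) covered the letters TATAA, a motif added after the data were seen, which begin 28 bp before the start of Cyp11a1-204. The fixed TATA motif, TATAAA, was not found in the peak. On both strands TATAA occurs in 24.9% of RefSeq promoter windows and TATAAA in 13.6%. The next footprint, from 42 to 48 bp (42 to 50 bp in replicate 2), lay over the Cyp11a1-204 start. The last pair, 60 to 74 bp and 54 to 60 bp, met at 1 base only. The hexamer AGGTCA, a nuclear receptor site found in 16.3% of promoter windows, lay 28 to 23 bp before the RefSeq start, sharing 1 base with a footprint of replicate 1 but with its centre in none. The SF-1 core TCAAGG lay 2 to 7 bp after the start on the minus strand (14.4% of promoter windows) and was not in a footprint.

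The longer SF-1 letters AAGGTCA, the only longer spelling scanned, were found in 3 of the 22 elements and in none of the 5 shared in the shorter lists. Within 150 bp at the centre they were in 2 of the 22, and over the same length they occur on either strand in 4.85% of 26639 shared distal peaks. The match at -11.5 kb (TGACCTT, minus strand) and that at -3.2 kb each lay in a footprint of replicate 1 alone, and that at +21.5 kb in none. The core TCAAGG, added after the data were seen, was in 8 of the 22 elements within 150 bp at the centre and in 10.4% of shared distal peaks over the same length. It overlaps AAGGTCA by 4 letters where both fit, as at -11.5 kb. At -49.0 kb the core lay in a footprint of both replicates, at -11.5 and -5.8 kb in a footprint of replicate 1 only, and the other matches in whole elements lay in none. The letters on the core's strand read TCAAGGCCA at -49.0 and -5.8 kb, a spelling that AAGGTCA does not match.

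The -5.8 kb element held CACGTG, the E-box read by bHLH factors such as USF and the circadian activators, in a footprint of both replicates. Within 150 bp at the centre CACGTG was in 1 of 22 elements and is in 3.12% of shared distal peaks. The +46.1 kb element held CAGCTG, another E-box, in a footprint of both, of 30 bp in replicate 1 and 31 bp in replicate 2. CAGCTG was in 7 of 22 whole elements. Within 150 bp at the centre it was in 4 of 22 (18.2%), near the 15.4% of shared distal peaks that hold it.

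The CTCF consensus, read by the zinc finger protein that marks many domain boundaries, matched in 3 elements, each time within 150 bp at the centre, where 8.99% of shared distal peaks hold it. It was chosen after the footprints were seen. The matches lay at -24.3 kb on the minus strand (chr9:57990617-57990631), +23.7 kb on the plus strand (chr9:58038683-58038697) and +38.3 kb on the plus strand (chr9:58053260-58053274). The -24.3 and +23.7 kb matches, on either side of the gene, were footprinted in both replicates, and their elements had the centred ratios nearest to 0 among the 8 (-0.16 and -0.02). The +38.3 kb match was footprinted in replicate 1 alone. The window held 4 matches, so 1 lay outside all elements. The CTCF motif fixed beforehand was the shorter core AGGNGGC. Within 150 bp at the centre this core was in 4 of 22 elements (18.2%), against 27.7% of shared distal peaks.

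By sequence the 22 elements had a GC content of 45.8% to 63.6% (median 54.8%), a median CpG observed over expected of 0.216, and no element with over 50% repeat bases. Only 2 overlapped an exon: the promoter and the -16.8 kb element, in the exon of Gm17322.

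The other genes of steroid synthesis were read from a list of 23. A shared peak within 1 kb of any start was present in 19 of them (63.6% of all protein-coding genes) and within 1 kb of the most 5′ start in 15 (59.1% of all). The layout of Cyp11a1, with a peak at an internal start alone, was found in 3 of the 23. Among all 12679 protein-coding genes with an internal start 6.38% had it, and not all of the 23 have such a start. The 3 were Por (the reductase that feeds electrons to microsomal P450 enzymes), Cyb5a (cytochrome b5) and Lipe (hormone-sensitive lipase, which frees stored cholesterol). Their heights were 14.0 and 5.89 for Por, 10.9 and 4.21 for Cyb5a, and 8.82 and 4.78 for Lipe, all above Cyp11a1. Its partners in the mitochondrion, Fdx1 (ferredoxin, 6.87 and 3.72) and Fdxr (its reductase, 11.0 and 4.30), had higher start peaks. Both genes had a shared peak within 1 kb of their most 5′ start. Star, which carries cholesterol to the enzyme, had 3.58 and 1.25, close to Cyp11a1 in replicate 1 and lower in replicate 2. Nr5a1 itself had 3.24 and 2.09.

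Enzymes of later steps were lower or lacked a shared start peak. Cyp11b1, the last step of corticosterone synthesis, had 1.51 and 0.812. Hsd3b6 had 0.655 and 0.359, and Cyp17a1 had 1.68 and 1.51. Hsd3b1, Cyp21a1 and Cyp11b2 had none, and neither did Mc2r, the ACTH receptor, though Cyp21a1 and Mc2r had a peak at the most 5′ start in replicate 1. Cyp21a1 has a near-identical copy in the mouse genome, so its signal is uncertain. The number of shared peaks in the window was 5 for Cyp11a1, with a median of 4 over the other 23 (1 to 12). The median centred window ratio was at least that of Cyp11a1 in 10 of 23, and in 16.1% of the 18779 protein-coding genes with a shared peak in their window.

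**Figure D5:**
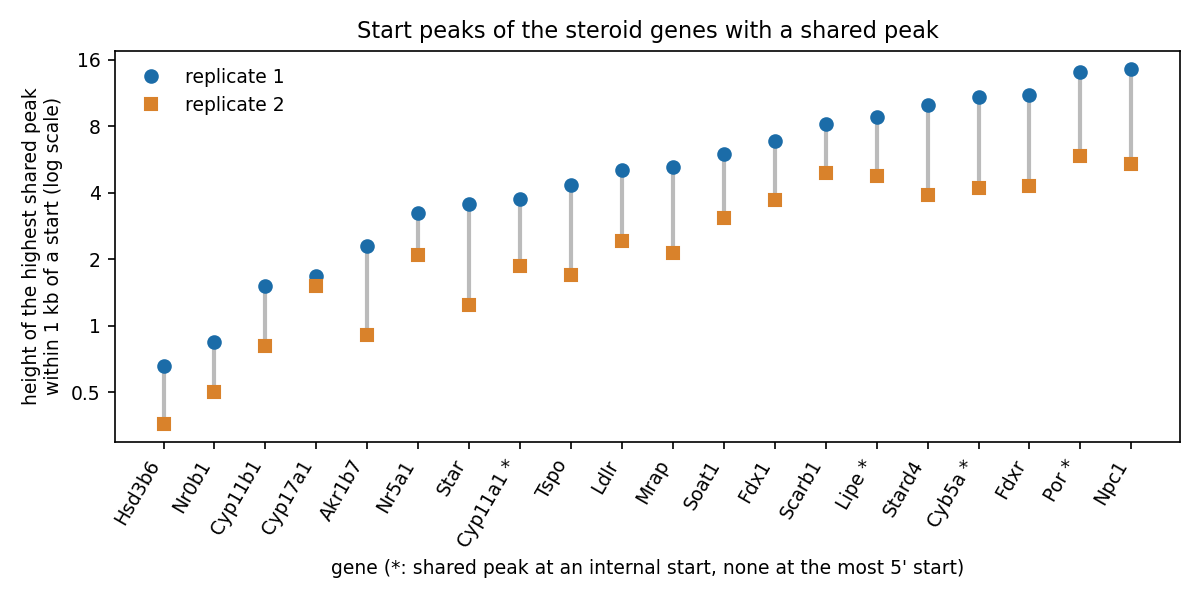
Height (y axis, normalised signal on a log scale) of the highest shared peak within 1 kb of a start in replicate 1 (circles) and replicate 2 (squares) for Cyp11a1 and the 19 other steroid genes that have one, in order of replicate 1. Cyp11a1 stands at 3.74 and 1.87, next to Star, and asterisks mark the 4 genes with a shared peak at an internal start and none at the most 5′ start.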

How the data were processed

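DNase-seq of 2 adrenal samples was read from deposited interval files. Per the deposited file listing, each file was made from 1 sample on mm10, with no pooling. The sources used here give no aligner, peak caller, footprint caller or read total. The peak height is a deposited normalised signal. The deposited FDR values are adjusted p-values per stretch, listed under 0.05, and each deposited footprint carries the same p-value, 0.01. CAST/EiJ reads were aligned to mm10, so signal may be lower at strain differences.

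Each sample had a shorter and a longer peak list. Elements were merged peaks of the longer lists with at least 1 bp of overlap, with the highest height per replicate, and shared peaks were regions of the shorter lists holding peaks of both. So the -5.8 kb height of replicate 2 is that of the longer list (0.967, against 0.942 in the shorter). Ratios were centred on the median of shared peaks. Genes, and the starts used to compare genes, came from GENCODE M21 on 21 chromosomes. The sequence, the promoter windows and the Cyp11a1 starts named as RefSeq came from RefSeq (GRCm38.p6). Motifs were exact letters on both strands. A footprint covered a match when it held the match's centre. Functions were tested on simulated data. Python 3.11.15, numpy 2.4.6, pandas 2.3.3, scipy 1.17.1, pysam 0.24.0 and matplotlib 3.10.9 were used.

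The locus, lists and motifs were chosen with earlier results of these data known. Named genes were Cyp11a1, genes with a start in the window, the steroid and marker lists and the 3 genes most alike. Alternatives were the longer lists, the highest peaks, other flanks, overlaps, start distances, centrings and FDR thresholds, and each replicate alone.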

Additional observations from a re-analysis of the deposited data

How the results depend on the processing

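With 1 group, no paired analysis was possible because no groups could be compared. Of 71 recomputed values, 51 stayed close to the main value and 20 moved. Close was a loose label: the median log2 ratio counted as close within the SD over the shared elements, 0.72. The peak at the internal start and its lack at the most 5′ GENCODE start held under each alternative run for them. The internal-start height in 1 replicate could not change when the other replicate was left out. With the longer lists the shared elements numbered 8 and the replicate 2 peaks 9. With flanks of 25 kb there were 3 shared elements and 3 replicate 2 peaks. With 100 kb there were 11 shared elements, 26 and 13 peaks, 87 and 58 footprints, and 11886 and 6774 bases under an FDR of 0.05, in replicates 1 and 2. At an FDR under 0.001 the bases were 3486 and 920, and at 0.01 they were 1538 in replicate 2. Without centring the median log2 ratio was 1.00. Centred, it fell from 0.27 to 0.07 with only the peaks above the median height of each list and to 0.14 with flanks of 100 kb, moves smaller than the SD over the shared elements. It was 0.12 to 0.33 when each shared element was left out in turn, an alternative added after the data were seen, as was the SF-1 core, which was in 4 of the 5 shared elements. Each replicate alone gave 5 to 14 elements, with 42.0% to 72.6% of genes having fewer, 0 to 2 with AAGGTCA and 1 to 4 with AGGTCA. Read depth is not known, and its part in the elements found in replicate 1 alone was not tested. That these were not detected in replicate 2 does not show them absent.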
